A study of Mus musculus with 16 samples.

Results

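The late part of a SLAM-seq chase was compared between YBX1-/- and WT mouse leukemia cells, at 12, 18 and 24 h after the label had been removed. At each of these hours 1 YBX1-/- library was set against 1 WT library, so 6 of the 16 libraries of the series entered the comparison. Genes were included where the interval with the highest mean CPM (counts per mapped reads, as the authors' mean over libraries) reached a CPM of 10, because a T-to-C rate near 0 needs depth. This gave 3823 of the 21177 genes in the table. The 204 of them on chromosome 8 were counted apart, and the library medians below were taken over genes outside that chromosome.

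The cells came from bone marrow of C57BL/6 animals, either WT or YBX1-/-. Both genotypes were handled alike: RNA was labelled with 50 µM 4-thiouridine (4sU) for 24 h, the label was washed out, and the cells were kept in medium with 10 mM uridine until collection. PolyA RNA was sequenced. The sources used here do not give the driver of the leukemia, the deleted part of the gene or the number of animals behind a library, nor do they say whether the hours came from separate cultures. The hours served as replicates, so no p-value below measures scatter between animals. Those of the late comparison rest on 3 time points, in limma with the spread moderated over genes. Those of late minus early rest on all 16 libraries.

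In SLAM-seq the analogue 4sU takes the place of uridine in new RNA and is read as C in place of T after chemical conversion, so the T-to-C rate of a transcript tells how much of it was made while the label was present. During a uridine chase the rate drops as labelled molecules are degraded and as unlabelled ones are added, and these cannot be told apart here. YBX1 is a cold-shock domain protein that binds mRNA, has been described as a reader of methylated bases and is known for holding mRNAs in a stable, translationally quiet form. N6-methyladenosine (m6A) is the most common internal mRNA modification and is tied to faster turnover of many transcripts through the YTHDF readers.

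All 10 myeloid leukemia markers (Ptprc, Spi1, Mpo, Elane, Itgam, Cd68, Lyz2, Csf1r, Hoxa9 and Meis1) were among the genes that reached the CPM minimum. None of 8 erythroid and none of 8 stromal or endothelial markers did. Of 9 lymphoid markers Il7r and Nkg7 did, and of 6 megakaryocyte markers Pf4 and Ppbp did. The CPM is a mean over libraries, so a difference in these cell types between the genotypes was not tested.

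Little label was left in either genotype, and the order of the genotypes changed between hours. Over 3486 tested genes outside chromosome 8, WT had median rates of 2.38%, 1.19% and 0.972% at 12, 18 and 24 h. YBX1-/- had 1.89%, 1.39% and 0.775%. YBX1-/- was thus the lower of the pair at 12 and 24 h and the higher at 18 h, and the quartile ranges of the genotypes overlapped at every hour. On the log2 scale the differences of the medians (YBX1-/- minus WT) were -0.32, 0.20 and -0.29, with a mean of -0.14 and an SD of 0.29 (n = 3 pairs). Exchanging the genotypes within each hour in all 8 ways gave p = 0.5 (exact permutation test, two-sided), and the smallest p it allows is 0.25.

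**Figure D1:**
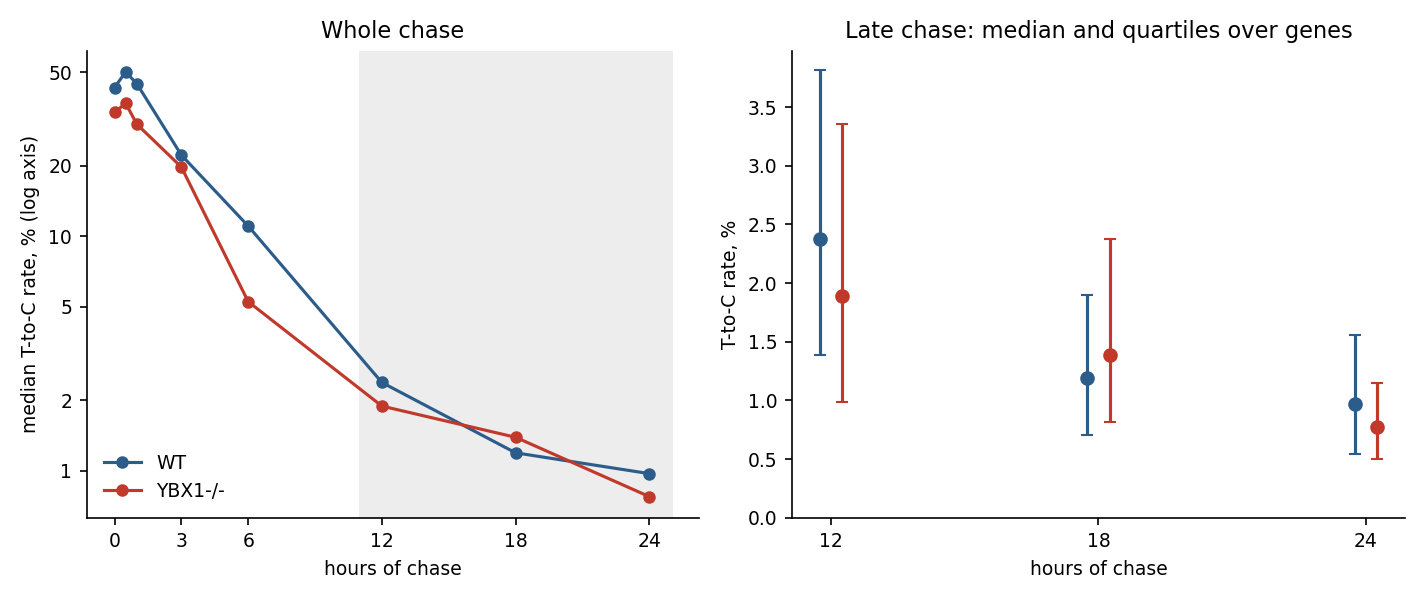
Median T-to-C rate in percent against hours of chase for WT (blue) and YBX1-/- (red), over 3486 genes outside chromosome 8. The left panel shows all 16 libraries on a log axis with the late hours shaded, and the right panel shows the late medians with bars from the lower to the upper quartile over genes. The medians lie at 2.38% and 1.89% at 12 h and at 0.972% and 0.775% at 24 h, and the bars of the genotypes overlap.

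The genotypes began the chase at different levels, and the late rates are also given relative to that start. WT had a median of 43.1% at 0 h and 11.1% at 6 h, and YBX1-/- 33.8% and 5.26%. Set against each gene's own mean rate from 0 to 1 h, the mean of the late rates was 3.50% in WT and 4.24% in YBX1-/- (medians over genes). By hour WT had shares of 5.24%, 2.62% and 2.18% and YBX1-/- shares of 5.70%, 4.28% and 2.35%. On this measure YBX1-/- was the higher at each of the 3 hours, most of all at 18 h. The share divides by a start that was lower in YBX1-/-, with a 0 to 1 h median of 33.8% against 46.3% in WT. No unlabelled library was subtracted from the late rates, so a higher share does not by itself show more label kept. From 12 to 24 h the rate of the median gene changed by -1.32 on the log2 scale in WT and by -1.18 in YBX1-/-. A rate higher at 24 h than at 12 h was seen for 16.8% of genes (WT) and 17.8% (YBX1-/-).

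A rate of exactly 0, which can stand for no converted read or for no read at all, became common late in the chase. In WT 4.62%, 6.17% and 11.6% of the tested genes were at 0 at 12, 18 and 24 h, and in YBX1-/- 6.80%, 7.26% and 3.61%. The share thus increased with the hour in WT and was lowest at 24 h in YBX1-/-. Depth per library is unknown, and whether it differed was not tested. A gene was tested only where at least 4 of its 6 late rates were above 0, which 3678 of the 3823 genes met. Of the other 145 genes, 31 were at 0 in all 3 WT libraries and 12 in all 3 YBX1-/- libraries.

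Transcripts with a high late T-to-C rate were partly the same in the genotypes. No unlabelled library was subtracted, so such a rate was not told apart from bases at which the cells differ from the reference. A rate of at least 5% was found at 12 h in 554 genes in WT and 492 in YBX1-/-, and 302 were in both lists, which is 54.5% of the WT list and 61.4% of the YBX1-/- list. At 18 h the lists held 143 and 201 genes, with 70 shared (49.0% and 34.8%). At 24 h they held 79 and 46 genes, with 31 shared (39.2% and 67.4%). Across the 3486 genes, the rates of WT and YBX1-/- at the same hour had a Pearson r on the log2 scale of 0.363, 0.246 and 0.251. Between 12 and 18 h of a genotype the r was 0.320 in WT and 0.342 in YBX1-/-. These are descriptions over genes that share an interval, its T content and its depth.

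A rate of at least 5% in all 6 late libraries was found for 24 of the 3486 genes (0.688%). Those with the highest lowest rate were Lyz1, Lxn, H2-Ab1, Wfdc17 and Cenpx. Lyz1, a lysozyme of myeloid cells, had rates of 40.2%, 30.4% and 19.4% in WT and 25%, 35.0% and 17.8% in YBX1-/-. Lxn, which encodes the carboxypeptidase inhibitor latexin, had 15.3%, 15.8% and 24.9% in WT and 16.9%, 24.0% and 18.8% in YBX1-/-. The WT rate of Lyz1 was lower at each later hour and that of Lxn was not, and the genotypes overlapped for both genes.

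H2-Ab1, the beta chain of an MHC class II molecule, had 19.6%, 14.7% and 16.8% in WT and 18.0%, 17.0% and 13.8% in YBX1-/-. Wfdc17, a small secreted protein of activated phagocytes, had 25.1%, 17.2% and 10.9% in WT and 30.9%, 23.3% and 20.2% in YBX1-/-. Cenpx, a histone-fold protein of the kinetochore and of DNA repair, had 14.2%, 10.7% and 11.6% in WT and 16.6%, 13% and 13.1% in YBX1-/-. The last 2 were higher in YBX1-/- at each hour, by 0.67 ± 0.35 for Wfdc17 and 0.36 ± 0.30 for Cenpx (log2 relative to the library median, 3 pairs). Here and below the value after ± is the limma SE, moderated over genes. Neither gene passed the test (limma adjusted p = 0.785 and 0.864).

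The remaining 19 such genes included B2m, the light chain of MHC class I, with 17.2%, 9.23% and 5.07% in WT and 17.9%, 10.3% and 5.66% in YBX1-/-. Also among them were Cd74, Chil3, Ctss, Slpi, Mmp12, Ms4a6c and Mcpt8 of myeloid cells and their lysosomes or granules, and Rplp1 and Rack1 of the ribosome. Mcpt8, a basophil protease, had 50.0%, 40.0% and 27.8% in WT against 19.8%, 12.5% and 8.73% in YBX1-/-. Every WT rate of Mcpt8 was above every YBX1-/- rate, with a difference of -1.42 ± 0.35 (limma adjusted p = 0.491). Its WT mean of 0 to 1 h, 29.0%, was below its WT late mean of 39.3%. B2m and Chil3 are also among the 4 members of their lists with the highest CPM, whereas Mcpt8 and the other genes listed here fall outside the rule for named genes and were chosen after their values were seen.

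No gene passed the test of the late genotype difference. The difference was YBX1-/- minus WT of log2(rate in percent + 0.1), after the median of each library had been subtracted, fitted with limma with the hour as a block. At a Benjamini-Hochberg adjusted p under 0.05 it called 0 of 3678 genes (0%), and the smallest adjusted p was 0.106. At an unadjusted p under 0.05 it called 245 genes (6.66%), 137 of them higher and 108 lower in YBX1-/-. Without the 12 h pair 8 genes passed and without the 18 h pair 20, of which 4 and 9 were on chromosome 8, and without the 24 h pair 0 passed. Chromosome 8 held 192 of the 3678 tested genes. Its calls were all lower in YBX1-/-, 4 of the 5 lower calls without the 12 h pair and 9 of 9 without the 18 h pair. The median difference over genes outside chromosome 8 was 0.04.

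The per-gene differences had low correlations between hours. Outside chromosome 8, Pearson's r over 3486 genes was 0.064 between 12 and 18 h, 0.039 between 12 and 24 h and -0.030 between 18 and 24 h. In the 697 genes with the highest mean CPM (from 48.2 up), 1 of 5 near-equal groups by CPM, it was 0.296 between 12 and 18 h, yet -0.0093 between 12 and 24 h and -0.027 between 18 and 24 h. The differences spread less at higher CPM: the range from the lower to the upper quartile was 1.85 in the group with the lowest CPM (10 to 13.7) and 0.575 in the highest. Of the 3486 genes 516 (14.8%) were relatively higher in YBX1-/- at 3 of 3 hours and 445 (12.8%) were relatively lower. In 70 (2.01%) every YBX1-/- rate was above every WT rate, and in 147 (4.22%) every one was below.

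**Figure D2:**
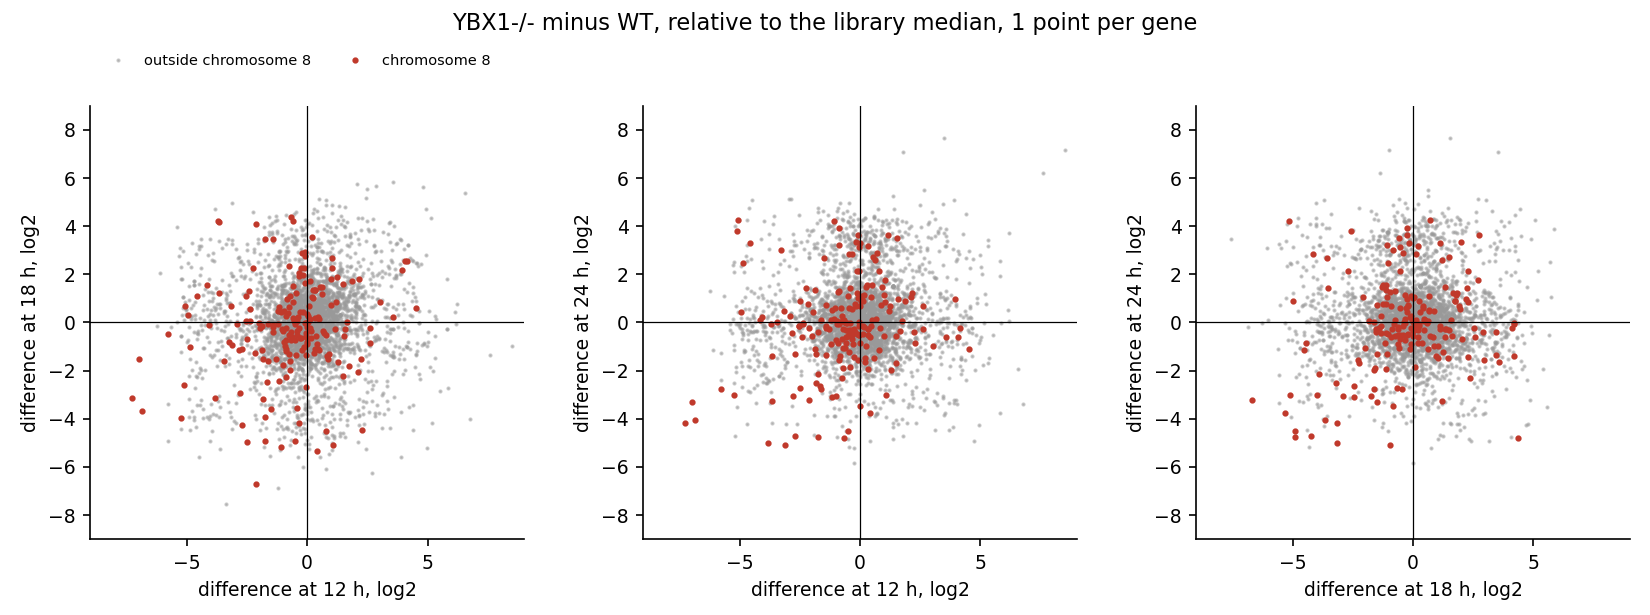
Difference of each gene between the genotypes (YBX1-/- minus WT, log2, relative to the library median) at 1 late hour against another. Grey points are 3486 genes outside chromosome 8 and red points 192 genes on it, and the grey points have r of 0.064, 0.039 and -0.030 while a share of the red points lies in the lower left of each panel.

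The genes that led the list outside chromosome 8 did not pass the test and are described with that limit. Their intervals, all in the 3' UTR of their own gene and on the plus strand of GRCm38, were as follows. Those higher in YBX1-/- were Aurkb (ENSMUSG00000020897) on chromosome 11 from 69051062 to 69051664, Slfn2 (ENSMUSG00000072620) on chromosome 11 from 83070334 to 83070678, Olfm1 (ENSMUSG00000026833) on chromosome 2 from 28229729 to 28230736, Eea1 (ENSMUSG00000036499) on chromosome 10 from 96042205 to 96045518 and Nptn (ENSMUSG00000032336) on chromosome 9 from 58651319 to 58655208. Those lower were Rpl27a (ENSMUSG00000046364) on chromosome 7 from 109521730 to 109522367, Faap20 (ENSMUSG00000073684) on chromosome 4 from 155256135 to 155256683, U2af1l4 (ENSMUSG00000078765) on chromosome 7 from 30564082 to 30564607, Rpl22 (ENSMUSG00000028936) on chromosome 4 from 152332425 to 152334071 and Arf5 (ENSMUSG00000020440) on chromosome 6 from 28426159 to 28426602.

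Aurkb, the mitotic kinase of the chromosomal passenger complex, had late rates of 0.858%, 0.728% and 1.67% in WT and 11.1%, 10.4% and 12.0% in YBX1-/-. All YBX1-/- rates were above all WT rates, and they did not decline from 12 to 24 h. Whether these flat rates are label or bases at which the cells differ from the reference was not tested. The difference was 3.46 ± 0.32 (moderated SE, n = 3 pairs, limma adjusted p = 0.106). The means of 0 to 1 h were 61.5% in WT and 45.6% in YBX1-/-, at 3 h WT was listed at 0% and YBX1-/- at 18.2%, and at 6 h the rates were 3.77% and 10.6%. The interval of 603 bases had a mean CPM of 15.4, against the minimum of 10. The adjusted p of Aurkb was 0.0346, 0.000439 and 0.180 without the 12, 18 or 24 h pair and 0.271 with no block for the hour, and over all alternatives it ranged from 0.000439 to 0.570.

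Slfn2, a schlafen family protein that keeps immune cells in quiescence, had 0.521%, 0% and 0.546% in WT and 5.77%, 6.57% and 7.74% in YBX1-/-. The YBX1-/- rates were again all above the WT rates and close to the 6 h rate of 7.95% in the same genotype. Whether these rates are label or bases that differ from the reference was not tested either. The difference of 4.44 ± 0.61 rests in part on the 0 at 18 h, whose size on the log2 scale is set by the added 0.1 percentage points (limma adjusted p = 0.225, and 0.0432, 0.00295 and 0.340 without the 12, 18 or 24 h pair, with a range of 0.00295 to 0.752 over all alternatives).

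Eea1, a tether of early endosomes, had 2.1%, 0.798% and 0.658% in WT and 13.9%, 4.17% and 2.52% in YBX1-/-, a difference of 2.37 ± 0.37 (limma adjusted p = 0.246, and 0.574, 0.0179 and 0.313 without the 12, 18 or 24 h pair, with a range of 0.0179 to 0.763 over all alternatives). Olfm1, which encodes the secreted glycoprotein noelin, had 2.01%, 1.54% and 0.357% in WT and 14.3%, 11.1% and 1.27% in YBX1-/-, a difference of 2.51 ± 0.38 (limma adjusted p = 0.246). Nptn, a cell adhesion molecule of the immunoglobulin family, had 3.39%, 0.699% and 0% in WT and 9.38%, 11.5% and 1.43% in YBX1-/-, a difference of 3.22 ± 0.57 (limma adjusted p = 0.276). For Eea1 the genotypes did not overlap over the 3 hours. For Olfm1 and Nptn the YBX1-/- rate at 24 h lay within the WT range. At 6 h the YBX1-/- rate was 2.55% for Eea1 and 7.32% for Olfm1, below the rates of these genes at 12 h. For Nptn it was 26.05%, above its rate at 12 h. Depth per library is unknown, so the rises of Eea1 and Olfm1 at 12 h cannot be read as retained label.

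In the other direction Rpl27a and Rpl22, proteins of the large ribosomal subunit, were among the 5 leading genes. Rpl27a had 22.1%, 8.59% and 5.45% in WT and 5.88%, 3.08% and 1.92% in YBX1-/-, a difference of -1.47 ± 0.28 (limma adjusted p = 0.296). Rpl22 had 15.2%, 12.2% and 8.93% in WT and 4.38%, 1.23% and 2.29% in YBX1-/-, a difference of -2.17 ± 0.45 (limma adjusted p = 0.353). The rates of Rpl22 did not overlap between the genotypes. Those of Rpl27a did, because the YBX1-/- rate at 12 h was above the WT rate at 24 h, while YBX1-/- was the lower at each hour. Rpl22 was already lower in YBX1-/- at 6 h, with 12.2% against 30.2% in WT. Relative to the library median, its difference over 0 to 6 h was -0.28. Rpl27a had 26.2% in YBX1-/- and 24.3% in WT at 6 h.

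Faap20, a partner of the Fanconi anaemia core complex, had 10.8%, 5.93% and 2.20% in WT and 0.959%, 0.304% and 0.503% in YBX1-/- (difference -2.93 ± 0.56, limma adjusted p = 0.296). U2af1l4, a relative of the small U2AF splicing factor, had 6.78%, 9.76% and 1.95% in WT and 0%, 1.00% and 0.221% in YBX1-/- (difference -3.85 ± 0.77, limma adjusted p = 0.348). Arf5, a small GTPase of the Golgi, had 5.56%, 4.17% and 1.54% in WT and 1.11%, 0.368% and 0.359% in YBX1-/- (difference -2.28 ± 0.56, limma adjusted p = 0.491). In these 3 genes no YBX1-/- late rate reached the lowest WT late rate, although at 6 h the genotypes were close: 16.6% and 16% for Faap20, 11.4% and 13% for U2af1l4, and 15.7% and 13.6% for Arf5.

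**Figure D3:**
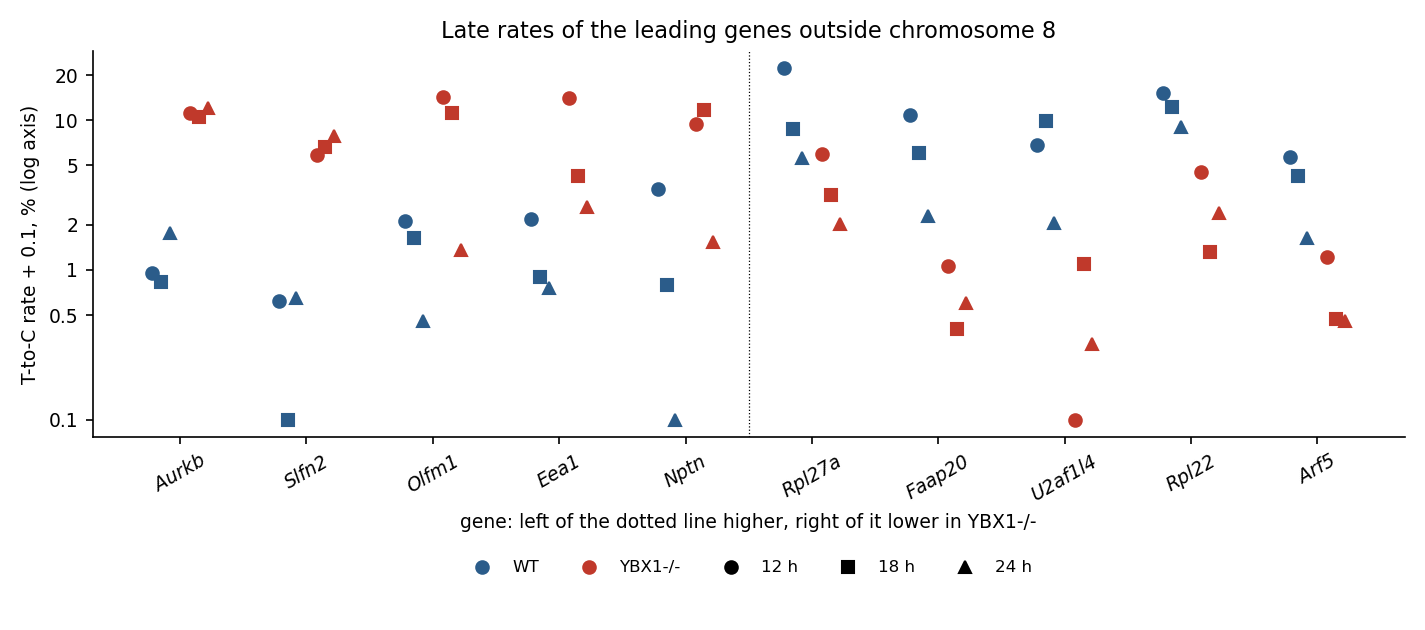
T-to-C rates of the 10 leading genes outside chromosome 8 in the 6 late libraries, on a log axis of rate in percent + 0.1. Blue is WT and red YBX1-/-, and the marker gives the hour: Aurkb lies at 0.728% to 1.67% in WT and 10.4% to 12.0% in YBX1-/-, and Rpl22 at 8.93% to 15.2% and 1.23% to 4.38%.

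Since the series title ties the stability of mRNA to m6A, the intervals were searched for GGACT, the most common core of m6A sites, on the transcript strand. It was present at least once in 65.4% of 3816 intervals, and a match does not show that the site was methylated. Of the 10 leading genes Aurkb, Olfm1 and Rpl27a had no match, and Slfn2 had 1, Eea1 4, Nptn 2, Faap20 2, U2af1l4 1, Rpl22 2 and Arf5 1. The first match in each is shown with 12 bases on either side, GGACT in capitals, from GENCODE transcripts of the build GRCm38, all on the plus strand, so that the higher and lower genes can be compared:
Slfn2 (higher, chr11:83070598-83070626): tcacctgaaactGGACTccaggatgattt
Eea1 (higher, chr10:96042253-96042281): ataaattgatttGGACTctggttgcatac
Nptn (higher, chr9:58653880-58653908): actcttaaggctGGACTggatagctatga
Faap20 (lower, chr4:155256361-155256389): ctgatcctctgtGGACTcatcttcattgt
U2af1l4 (lower, chr7:30564370-30564398): ctcccaacctgaGGACTatcgataagttg
Rpl22 (lower, chr4:152332528-152332556): tggaaatgacagGGACTttaactgggctg
Arf5 (lower, chr6:28426212-28426240): gaccagactcccGGACTcctcaggcagtg

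Across all tested genes outside chromosome 8 the presence of GGACT set apart little of the late difference. The median difference was 0.05 in 2262 genes with at least 1 match and 0.04 in 1218 genes without. For the AU-rich pentamer ATTTA, found in 72.0% of intervals, it was 0.06 in 2509 genes with and -0.0032 in 971 genes without. By interval length, the longest of 5 near-equal groups (697 genes from 2690 bases up) had a median difference of 0.15, with 0.20, 0.17 and 0.14 at 12, 18 and 24 h, and the other 4 groups lay between -0.03 and 0.04. In that longest group 58.0% of genes had a positive difference, against 52.4% of all 3486, and 95.7% of its intervals held GGACT. In the longest of 3 near-equal groups the median was 0.11 with GGACT (1063 genes) and 0.14 without (97 genes). The span of these medians is small beside the quartile range of 1.05 over genes.

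The gene lists were described by counts and medians beside those of all tested genes, and no member of any list passed the test at an adjusted p under 0.05. The lists were chosen with earlier results of these data known, so their directions are not independent evidence. Members on chromosome 8 are left out of the list medians. Of all 3486 tested genes outside chromosome 8, 52.4% had a positive and 47.6% a negative difference. The 2 lists of at least 10 genes with the lowest and the highest median were the cytosolic ribosomal proteins and the m6A writers, erasers and readers.

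Of 86 genes with intervals in the list of cytosolic ribosomal proteins, the structural proteins of the translating ribosome, 27 reached the CPM minimum and were tested. These had higher late rates than the median gene, and lower relative rates in YBX1-/- than in WT in most tested members. In WT their median rates were 12.8%, 7.12% and 2.86% at 12, 18 and 24 h, against 2.38%, 1.19% and 0.972% for all genes. YBX1-/- had 7.77%, 3.86% and 1.92%, against 1.89%, 1.39% and 0.775%. The median difference over 27 tested members was -0.53, with -0.31, -0.96 and -0.23 by hour. It was negative in 25 of 27 members, beside 47.6% of all genes, and positive in Rps27l and Rpl37. Of the 27, 11 were relatively lower at 3 of 3 hours, next to the 12.8% of all genes given above. None was relatively higher at 3 of 3 hours. Before the library median was subtracted, the rate itself was lower in YBX1-/- in 23, 25 and 19 of 27 members at 12, 18 and 24 h (85.2%, 92.6% and 70.4%), beside 60.5%, 42.0% and 59.8% of all genes. After it was subtracted, 21, 25 and 16 of 27 were lower, beside 49.2%, 49.2% and 47.4% of all genes.

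The early differences had the same sign and a smaller size. The mean rate of 0 to 1 h had a list median of 42.0% in WT and 27.2% in YBX1-/-. The relative early difference (0 to 6 h) had a median of -0.13 and was negative in 21 of 27, beside 1800 of all 3486 genes. The median of late minus early was -0.37. Without the 18 h pair the late median was -0.31, without the 12 h pair -0.55 and without the 24 h pair -0.67.

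Among the 4 members with the highest CPM, Rpl41 had late rates of 20.4%, 12.1% and 8.46% in WT and 12.2%, 7.19% and 3.83% in YBX1-/- (difference -0.74 ± 0.29, limma adjusted p = 0.718). Rpl14 had 9.57%, 2.68% and 1.5% in WT and 6.13%, 2.23% and 0.786% in YBX1-/- (-0.45 ± 0.31, limma adjusted p = 0.833). Rps9 had 12.4%, 6.35% and 2% in WT and 8.63%, 3.78% and 2.99% in YBX1-/- (-0.10 ± 0.40, limma adjusted p = 0.979, and 0.32 without the 18 h pair). Rpl41 and Rpl14 were thus lower in YBX1-/- at each hour, and Rps9 at 12 and 18 h.

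Rps27l, a paralogue of Rps27 induced by p53, went the other way at 12 and 18 h, with 8.88%, 2.52% and 3.65% in WT and 10.9%, 4.94% and 2.21% in YBX1-/- (0.32 ± 0.34, limma adjusted p = 0.900, and 0.17, 0.11 and 0.68 without the 12, 18 or 24 h pair). Reads of ribosomal protein genes can be shared with processed pseudogenes, and the sources used here do not say how the authors' counting split them.

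Transcripts of the m6A machinery, the enzymes that add or remove the mark and the proteins that bind it, had differences of the opposite sign. Of 21 genes of the list with intervals, 11 reached the CPM minimum and 10 were tested. All 10 had a positive difference, beside 52.4% of all genes, with a median of 0.71. By hour the median was 1.12, 0.69 and 0.16. Of the 10, 5 were relatively higher at 3 of 3 hours, beside 14.8% of all genes, and 2 had an unadjusted p under 0.05, beside 6.02% of all genes. Their rates were low, with a median of 1.88%, 0.903% and 0.922% in WT and 3.88%, 2% and 1.19% in YBX1-/-. The direct rates were higher in YBX1-/- in 9 of 10 at 12 h and at 18 h but in 2 of 10 at 24 h, beside 39.2%, 57.4% and 39.7% of all genes. At 0 to 6 h the relative difference had a median of -0.06 and was negative in 6 of 10, beside 1800 of all 3486 genes. The late median was 0.43 without the 12 h pair, 0.64 without the 18 h pair and 1.10 without the 24 h pair.

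Among the members with the highest CPM, Hnrnpa2b1, an hnRNP described as a nuclear m6A reader, had 5.39%, 1.13% and 1.07% in WT and 6.69%, 1.86% and 1.03% in YBX1-/- (0.44 ± 0.35, limma adjusted p = 0.856). Its difference was -0.15 in the longest interval of the gene. Wtap, the adaptor of the methyltransferase complex, had 1.75%, 0.889% and 0.935% in WT and 2.97%, 1.93% and 0.746% in YBX1-/- (0.63 ± 0.50, limma adjusted p = 0.854, and 1.68 in the longest interval of the gene). Ythdf2, a reader that recruits deadenylases, had 1.38%, 0.747% and 0.621% in WT and 3.88%, 1.89% and 0.559% in YBX1-/- (0.98 ± 0.58, limma adjusted p = 0.799, and 0.59 without the 12 h pair). All of these were higher in YBX1-/- at 12 and 18 h and lower, by little, at 24 h.

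Hnrnpc, whose binding is opened by the mark, had 3.95%, 1.71% and 1.72% in WT and 5.16%, 3.16% and 1.35% in YBX1-/- (0.43 ± 0.35, limma adjusted p = 0.856). Ythdf3 and Mettl16 were the members with an unadjusted p under 0.05. Ythdf3, a reader, had 2.12%, 0.379% and 0.529% in WT and 3.39%, 2.74% and 1.57% in YBX1-/- (1.68 ± 0.51, limma adjusted p = 0.593). Mettl16, a methyltransferase of U6 RNA, had 0.680%, 1.25% and 0% in WT and 3.88%, 2.31% and 3.62% in YBX1-/- (2.94 ± 0.97, limma adjusted p = 0.640). In both the YBX1-/- rate was the higher at all 3 hours, and for Mettl16 the genotypes did not overlap. Both were named after their values were seen.

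The lists of turnover and of translation were closer to all genes. RNA decay factors had a median of -0.30 over 21 genes, with 8 positive and 13 negative, and by hour -0.59, -0.06 and -0.03. Their median was 0.12 without the 12 h pair and -0.49 without the 24 h pair. Pan3, a subunit of a deadenylase, had 1.64%, 1.12% and 1.17% in WT and 1.02%, 0.844% and 0.778% in YBX1-/- (-0.38 ± 0.57), and Pabpc1, the poly(A)-binding protein, 10.2%, 3.12% and 4.43% against 7.07%, 4.64% and 1.23% (-0.45 ± 0.41). Translation factors had a median of 0.10 over 38 genes, with 22 positive. Eef1a1, the elongation factor that brings tRNA to the ribosome, had 16%, 6.84% and 5.56% in WT and 15.9%, 7.93% and 1.90% in YBX1-/- (-0.30 ± 0.37), close at 12 and 18 h and lower in YBX1-/- at 24 h.

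Immediate-early and short-lived regulators, whose transcripts are known for fast turnover, had a median of 0.35 over 15 genes, from 0.92 and 0.85 at 12 and 18 h to -0.35 at 24 h. The median was -0.13 without the 12 h pair, 0.57 without the 18 h pair and 0.71 without the 24 h pair. Mcl1, an inhibitor of apoptosis with a short-lived mRNA, had 1.77%, 0.994% and 1.18% in WT and 2.1%, 2.17% and 0.722% in YBX1-/- (0.35 ± 0.50, limma adjusted p = 0.922). Id2, an inhibitor of basic helix-loop-helix factors, had 2.02%, 1.42% and 0.527% in WT and 3.12%, 3.47% and 1.21% in YBX1-/- (1.10 ± 0.41, limma adjusted p = 0.713). Zfp36, which binds AU-rich elements and speeds decay, had 2.36%, 0.712% and 2.19% in WT and 4.46%, 2.76% and 0.171% in YBX1-/- (0.01 ± 0.91). Id2 was the higher in YBX1-/- at each hour, and Mcl1 and Zfp36 changed order at 24 h.

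Granule and maturation proteins of myeloid cells had a median of 0.08 over 37 genes, with 19 positive and 18 negative, near that of all genes. Lyz2, with a mean CPM of 7376 the deepest gene of all, had 13.6%, 5.62% and 3.36% in WT and 7.56%, 5.78% and 2.91% in YBX1-/- (-0.20 ± 0.28, limma adjusted p = 0.922). Ngp, a granule protein, had 5.37%, 2.26% and 2.12% in WT and 4.51%, 1.62% and 0.857% in YBX1-/- (-0.50 ± 0.37, limma adjusted p = 0.850). Chil3, a chitinase-like protein, had 18.5%, 15.1% and 8.20% in WT and 19.4%, 9.71% and 7.36% in YBX1-/- (-0.10 ± 0.35, limma adjusted p = 0.973). The genotypes overlapped in each of these genes. From 0 to 1 h Ngp and Chil3 had higher mean rates in YBX1-/- (33.7% and 36.2%) than in WT (21.9% and 25%), whereas the library medians there were lower in YBX1-/-.

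Stem and leukemia regulators had a median of 0.28 over 17 genes, with -0.01, 0.48 and -0.36 by hour. It was 0.02 with an added 0.01 and 0.07 with an added 0.5 percentage points, and 0.49, 0.10 and 0.64 without the 12, 18 or 24 h pair. Lmo2, a bridging factor of stem cell transcription complexes, had 1.37%, 1.04% and 1.45% in WT and 1.49%, 1.08% and 0.981% in YBX1-/- (0.02 ± 0.52). Spi1, the master regulator of myeloid fate, had 4.74%, 0.752% and 0.680% in WT and 1.39%, 1.07% and 0.344% in YBX1-/- (-0.55 ± 0.63). Meis1, the partner of HOXA9 in leukemia, had 2.37%, 1.30% and 3.62% in WT and 6.45%, 5.30% and 1.68% in YBX1-/- (0.90 ± 0.56, limma adjusted p = 0.802). Meis1 was chosen after its values were seen.

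Lists of housekeeping complexes lay near the median of all genes, which was 0.04. It was 0.08 over 44 mitochondrial ribosomal proteins, -0.02 over 61 subunits of the respiratory chain and ATP synthase, -0.05 over 25 proteasome subunits, 0.04 over 10 glycolytic enzymes, 0.17 over 30 chaperones and 0.04 over 34 hnRNP and SR splicing factors. S-phase genes (0.18 over 19) and G2/M genes (0.11 over 14) went from -0.64 and -0.48 at 18 h to 0.59 and 0.78 at 24 h. Of the 14 G2/M genes 1, Aurkb, had an unadjusted p under 0.05, a share near the 6.02% of all tested genes outside chromosome 8. MHC class I presentation (0.20 over 7 genes), lysosomal ATPase and cathepsins (0.24 over 21) and Zfp genes (0.21 over 20) had medians above it. The myeloid leukemia markers had 0.17 over 10 genes, the BCL2 family -0.35 over 7 and the Myc and Max network 0.36 over 7. Without the 12, 18 or 24 h pair the BCL2 family had -0.78, 0.27 and -0.14, and the Myc and Max network 0.15, 1.41 and 0.55. The Zfp genes had -0.10 without the 12 h pair, and the S-phase and G2/M genes -0.20 and -0.08 without the 24 h pair. Without centring on the library median, which moved all genes to -0.09, the sign was also negative for mitochondrial ribosomal proteins, glycolysis, translation factors, granule proteins, G2/M genes and splicing factors. Of the markers of other cell types Il7r and Nkg7 were positive, and of Pf4 and Ppbp 1 was positive and 1 negative.

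**Figure D4:**
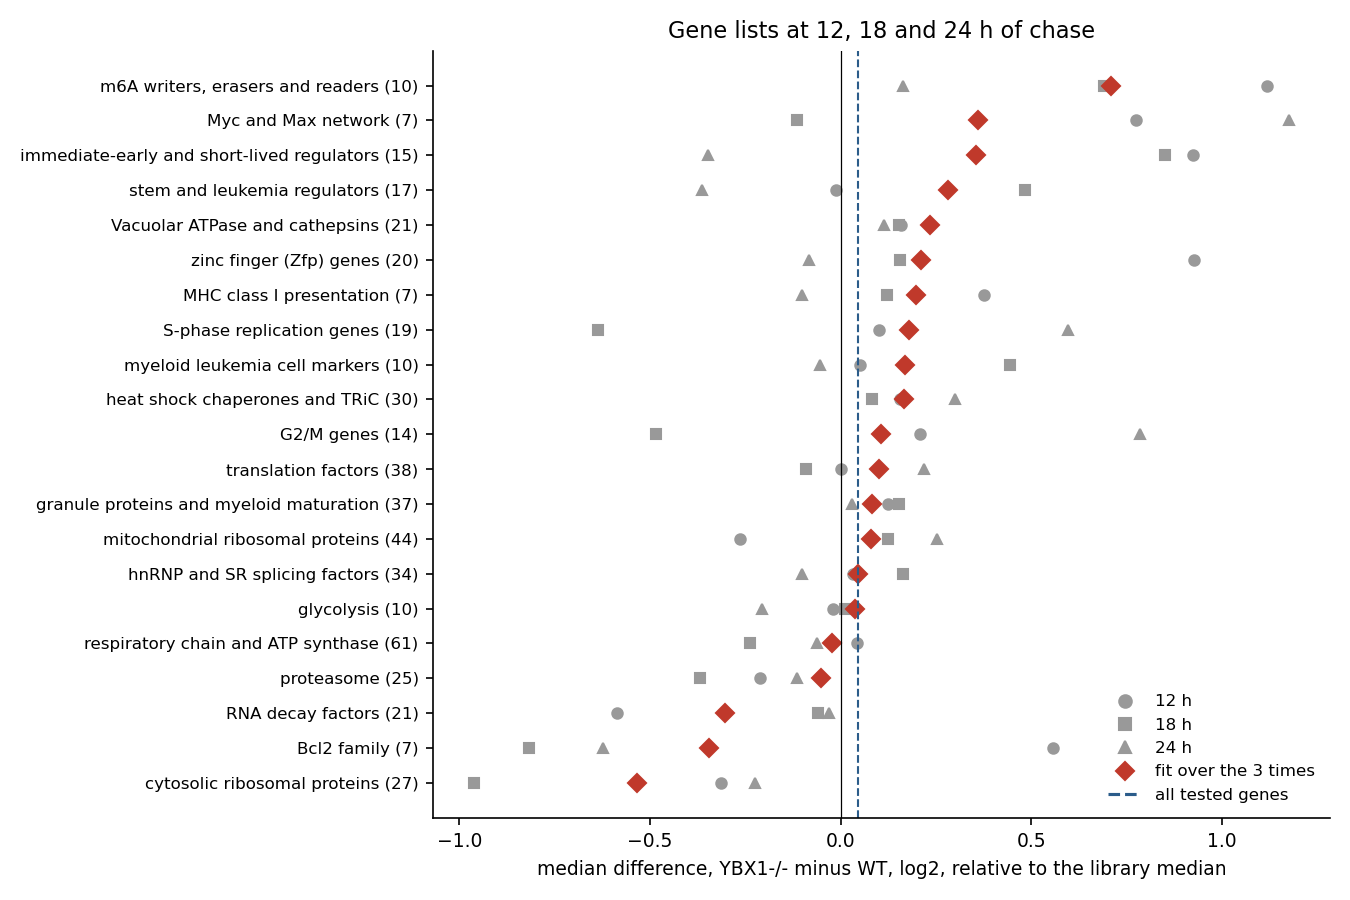
Median difference between the genotypes (YBX1-/- minus WT, log2, relative to the library median) for lists with at least 7 tested genes outside chromosome 8, the number of which stands in brackets. Grey markers are the 3 hours, the red diamond is the fit over the hours and the dashed line is the median of all tested genes at 0.04. The cytosolic ribosomal proteins are left of 0 and the m6A list right of 0 at each of the 3 hours, and most other lists change side between hours.

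Ybx1, the targeted gene, still gave labelled reads in YBX1-/-. Its rates were 15.5%, 7.30% and 5.08% in WT and 20.8%, 4.67% and 3.08% in YBX1-/-, the higher at 12 h and the lower at 18 and 24 h (difference -0.17 ± 0.38, limma adjusted p = 0.961, and 0.16 without the 18 h pair). A rate is a share of the transcripts of a gene and not their amount, so it does not check the genotype, and the place of the interval relative to the deleted part is not known here. Of other cold-shock domain genes, Ybx3 had a difference of 0.05 ± 0.53 and Carhsp1 of 0.60 ± 1.27.

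Myc and Bcl2, an oncogenic transcription factor and an inhibitor of apoptosis, lay below the CPM minimum with mean CPM of 8.88 and 6.49 and were not tested. Myc was listed at 0%, 0.597% and 0% in WT and at 2.16%, 1.57% and 0.980% in YBX1-/-. Bcl2 was listed at 0% at each hour in WT and at 0.990%, 0% and 0.656% in YBX1-/-. Myc was thus above WT in YBX1-/- at each hour, but the depth is unknown, so no limit can be set on what a 0 allows. Max, the partner of Myc, was tested: 0.552%, 0.772% and 0.495% in WT and 1.90%, 2.21% and 0.998% in YBX1-/- (1.44 ± 0.62, limma adjusted p = 0.746), with all YBX1-/- rates above all WT rates.

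Lower late rates in YBX1-/- were counted on chromosome 8 as elsewhere. Of 192 tested, 27 (14.1%) had every YBX1-/- late rate below every WT late rate, against 4.22% outside chromosome 8, and 1 (0.521%) had the reverse, against 2.01%. A difference below -2 was found in 20 of 192 (10.4%), the highest share of any chromosome, and in 2.81% elsewhere. The median difference was -0.21 on chromosome 8 and 0.04 elsewhere. The per-gene differences there had an r over 192 genes of 0.171, 0.202 and 0.226 between pairs of hours. Genes of 1 chromosome share neighbours and are not independent, so no test was made of these shares.

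The 27 genes were picked by their late rates, so these rates only describe them. Their median rate in WT was 6.63%, 5.63% and 7.56% at 12, 18 and 24 h, against 2.58%, 1.12% and 0.826% for the other 165 chromosome 8 genes. In YBX1-/- it was 1.02%, 0.905% and 0.577%, against 1.60%, 1.29% and 0.734%. From 12 to 24 h the median of these genes changed by -0.30 in WT, whereas the other chromosome 8 genes changed by -1.43 and all genes outside chromosome 8 by -1.32. At 0 h the WT median was 42.6% in the 27 genes and 42.7% in the others.

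The positions of the 27 genes were also described. Of the 27, Rasa3 was near the start of the chromosome, and the other 26 lay between 69112570 and 111626030, a stretch in which 102 genes were tested (25.5%). Outside the stretch 1 of 90 was of this kind. Within the stretch 71 of 102 genes had a negative difference and the median was -0.41, against -0.03 in the remaining 90 genes. The limits of the stretch were set after the values were seen, from the start of the first to the end of the last of the 26 genes. That 26 lay inside and 1 outside was therefore fixed by how the stretch was drawn. The 71 genes and the median of -0.41 include these 26, which were picked for low YBX1-/- rates. All 192 tested genes of the chromosome lay between 3623308 and 128733200. A T-to-C rate also counts bases at which the cells differ from the reference, and no unlabelled library was used to take these out. Whether the flat WT rates in the stretch are label or such bases, carried by 1 of the lines, was not tested, so the values of these genes are differences in T-to-C rate and cannot be read as retained label.

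**Figure D5:**
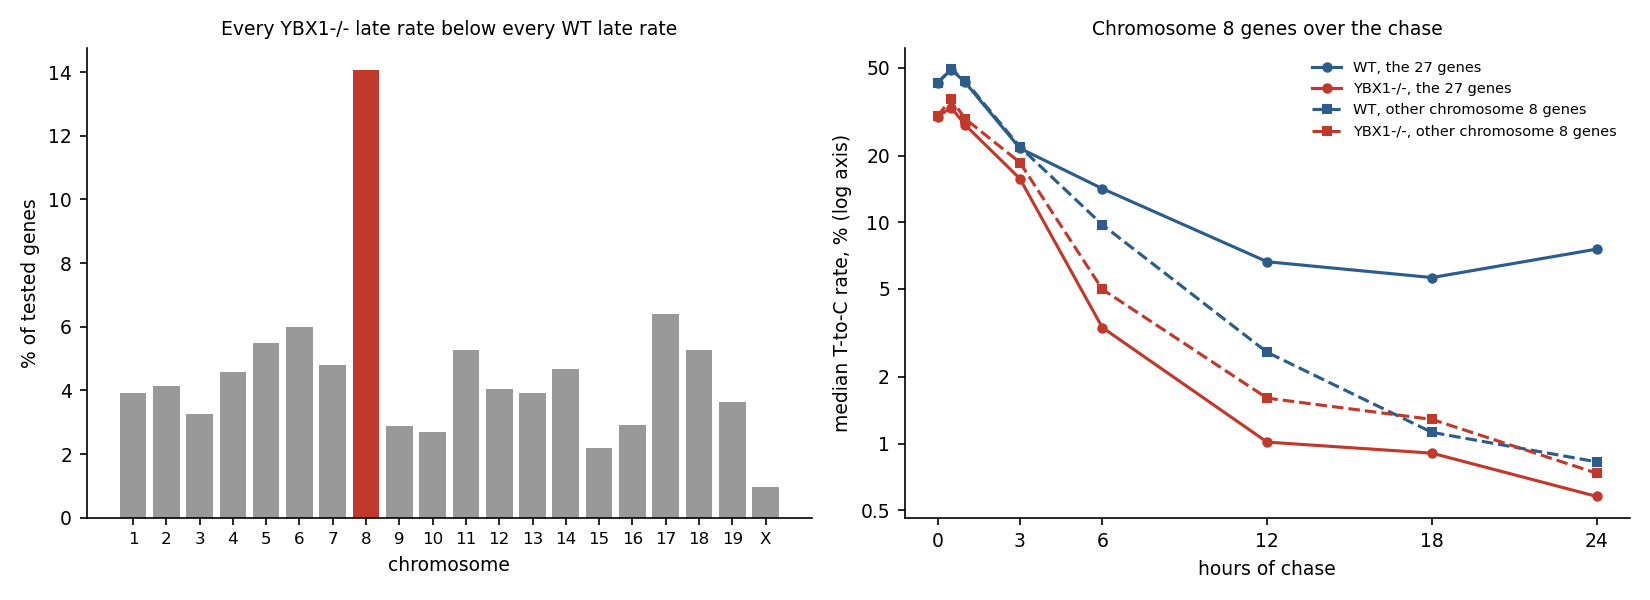
Left, percent of tested genes on each chromosome in which every YBX1-/- late rate was below every WT late rate. Right, median T-to-C rate in percent (log axis) over the chase for the 27 such genes of chromosome 8 (solid) and the other 165 (dashed), in WT (blue) and YBX1-/- (red). Chromosome 8 reaches 14.1%, and the solid blue line stays at 5.63% to 7.56% from 12 to 24 h while the other lines reach between 0.577% and 0.826% at 24 h.

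Lpcat2, an enzyme that makes lysophospholipids into phosphatidylcholine and platelet-activating factor, had 19.5%, 14.3% and 17.0% in WT and 1.01%, 1.79% and 0.337% in YBX1-/- (difference -3.99 ± 0.42, limma adjusted p = 0.114, and -2.33 with an adjusted p of 0.25 in the longest interval of the gene). Zfp330, a zinc finger protein, had 16%, 21.5% and 14.1% in WT and 1.90%, 1.20% and 0.344% in YBX1-/- (-3.88 ± 0.44, limma adjusted p = 0.114). Colgalt1, a collagen galactosyltransferase, had 5.84%, 4.42% and 11.1% in WT and 0.590%, 0.585% and 1.02% in YBX1-/- (-2.92 ± 0.34, limma adjusted p = 0.114). In all of these the WT rate did not decline steadily and the genotypes were far apart at each hour. Over all alternatives the adjusted p ranged from 0.000143 to 0.603 for Lpcat2, 0.000876 to 0.723 for Zfp330 and 0.00608 to 0.748 for Colgalt1. Their 3' UTR intervals on chromosome 8 (GRCm38) were Lpcat2 (ENSMUSG00000033192) from 92918035 to 92918823, Colgalt1 (ENSMUSG00000034807) from 71623761 to 71624911 on the plus strand, and Zfp330 (ENSMUSG00000031711) from 82763621 to 82764228 on the minus strand. Cyld, a deubiquitinase that restrains NF-kB, had 6.81%, 7.06% and 7.56% in WT and 1.67%, 1.39% and 0.913% in YBX1-/- (-2.25 ± 0.34, limma adjusted p = 0.246).

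The leading chromosome 8 genes in the other direction were Msr1, Plpbp, March1 and Cox4i1. Msr1, a scavenger receptor of macrophages, had 4.84%, 2.08% and 0.795% in WT and 8.11%, 16% and 2.38% in YBX1-/- (1.83 ± 0.39, limma adjusted p = 0.353). March1, a ubiquitin ligase that removes MHC class II from the surface, had 2.43%, 1.31% and 0.840% in WT and 30.8%, 7.32% and 1.41% in YBX1-/- (2.37 ± 0.57, limma adjusted p = 0.461). The YBX1-/- rate of March1 was 4.17% at 3 h and 2.94% at 6 h, far below its 30.8% at 12 h. Its difference was 1.58 without the 12 h pair. Depth per library is unknown, so the rise at 12 h cannot be read as retained label. Plpbp, which binds pyridoxal phosphate, had 0.932%, 1.44% and 1.23% in WT and 3.59%, 6.12% and 2.45% in YBX1-/- (1.73 ± 0.38, limma adjusted p = 0.378). Cox4i1, a subunit of cytochrome c oxidase, had 5.76%, 0.997% and 0.810% in WT and 9.18%, 4.31% and 1.54% in YBX1-/- (1.31 ± 0.35, limma adjusted p = 0.574). Each was higher in YBX1-/- at 3 of 3 hours, but Plpbp alone showed no overlap. All 4 lay outside the stretch.

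Whether the late difference itself departed from the difference at 0 to 6 h was tested in 1 model over all 16 libraries. The test called 2 of 3678 genes (0.0544%), Colgalt1 and Lpcat2 of chromosome 8, and 541 of 3678 had an unadjusted p under 0.05. Colgalt1 fell by 2.81 ± 0.25 (limma adjusted p = 0.00346) and Lpcat2 by 3.89 ± 0.48 (limma adjusted p = 0.0268) in YBX1-/- relative to WT between the periods, from early differences of -0.12 in both. The model takes 1 residual variance for early and late hours, so its p can understate scatter between the late hours. For the late difference alone the SE was 0.34 in Colgalt1 and 0.42 in Lpcat2. Without the pair of 12, 18 or 24 h the test called 119, 120 and 276 genes, and without chromosome 8 genes it called 0. Outside chromosome 8 the early and the late difference of a gene had an r of 0.082 over 3486 genes, and on chromosome 8 it was 0.288 over 192 genes.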

How the data were processed

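T-to-C rates were deposited as a fraction per interval and library, and the authors' mean CPM, coverage signal on Ts, T content and length accompanied them, per the file headers. CASAVA, HISAT2 2.1.0 and GRCh38 were named in the submitters' processing notes, although the samples were mouse. Intervals matched GRCm38: for 3816 of 3823 genes the sequence came from a GENCODE transcript, with a T number equal to the deposited T content. The conversion counter, its background correction and the denominator of the rate are not given in the sources used here. Library depth is unknown, so a rate carries no counting interval. No unlabelled library was subtracted.

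The table held 86993 intervals. For the 12348 genes with more than 1, that of highest mean CPM was used. Rates were put in percent, log2(rate + 0.1) was taken, and the library median over tested genes outside chromosome 8 was subtracted. limma 3.58.1 in R 4.3.3 (lmFit, eBayes with trend) fitted genotype with the hour as a block, on 2 residual degrees of freedom moderated over genes; the late minus early fit used all 16 libraries. The scripts were tested on simulated data. The pseudocount shrinks differences near 0 and exaggerates those against a rate of 0. The hour pairs the libraries by the labels. Named genes were Ybx1, Myc and Bcl2; per direction 5 outside chromosome 8 by smallest p with the same sign at 3 of 3 hours and a mean late rate at or above the median (1.51%), since none passed; 4 per direction on chromosome 8; up to 4 members per list by mean CPM; and the 5 genes with the highest lowest rate. Further genes are marked as chosen after their values were seen. The members and lists were chosen with earlier results of these data known. Python 3.11.15, pandas 2.3.3 and matplotlib 3.10.9 were used.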

Additional observations from a re-analysis of the deposited data

Results flagged for a closer look

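The change of the genotype difference between 0 to 6 h and 12 to 24 h passed the test of that difference (limma, genotype by period, over all 16 libraries) in Colgalt1 and Lpcat2. That fit takes 1 residual variance for early and late hours. The change was -2.81 for Colgalt1 and -3.89 for Lpcat2 (log2, YBX1-/- minus WT, late minus early). Colgalt1 kept its call with an added 0.5 or 0.01 percentage points and without the YBX1-/- 0 h library (adjusted p under the threshold in each), and lost it without the centring on the library median (adjusted p = 0.0593) and without the hour as a block (0.0908). Lpcat2 lost it with an added 0.01 percentage points (0.0566), without the centring (0.0593) and without the YBX1-/- 0 h library (0.103). Both lie in the stretch of chromosome 8 described above, where label and base differences of the cells from the reference were not told apart.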

How the results depend on the processing

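In the main setting no gene passed the late test. Genes passing it, higher and lower, were 2 and 3 with an added 0.5 percentage points, 1 and 3 where all 6 late rates had to be above 0, 1 and 2 without centring, and 0 and 2 with no replicate block. They ranged from 0 to 11 higher and 0 to 9 lower when 1 pair was left out. The late minus early test, with 0 and 2, gave 0 and 1 with 0.01 percentage points, 1 and 3 with 0.5, 5 and 9 where all 6 rates had to be above 0, 0 and 0 without centring, 1 and 4 with no replicate block, 0 and 0 without chromosome 8 genes, and 0 and 1 without the YBX1-/- 0 h library. It ranged from 54 to 151 higher and 60 to 125 lower with 1 pair left out. Where the median of all genes was not subtracted, it was -0.09 late and 0.41 for late minus early. With 1 pair left out the difference ranged from -0.62 to 0.16 for Ybx1 and from -0.57 to 0.32 for Rps9, each positive without the 18 h pair, and it turned to -0.15 for Hnrnpa2b1 in its longest interval. The library median difference lay between -0.31 and -0.04 with 1 pair left out, and was -0.14 with no replicate block. The cytosolic ribosomal and m6A medians kept their sign in each of 6 alternatives, from -0.67 to -0.31 and from 0.43 to 1.10. Of 126 list medians under alternatives 109 moved by less than their spread over hours and 17 by more. The cause of these changes was not tested. Depth per library is unknown, late rates are near 1% and a leave-one-out fit keeps 2 pairs, so no detection limit can be given for a gene.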
